A study of Homo sapiens with 6 samples.

Results

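The enzymes of cholesterol and isoprenoid synthesis described here are 31 genes, picked from the 60616 genes of the deposited tables by matching each gene identifier to a given list of symbols. They fall into 8 genes of the mevalonate arm, which ends in farnesyl and geranylgeranyl diphosphate, 13 genes of the arm that leads through squalene to cholesterol, and 10 genes of side branches. The side branches hold 2 genes for dolichol, 3 for ubiquinone and 5 for the transfer of isoprenoids to proteins. RNA was sequenced from 12Z, a wild-type immortalized line from human endometriotic lesions, used to study endometriosis, in which tissue resembling the uterine lining grows elsewhere. Of the 6 libraries, 3 came from cells given frankincense extract, a preparation of Boswellia resin, at 70 ug/mL in DMSO for 12 h, and 3 came from cells given DMSO as vehicle. Every culture was kept in serum stripped with charcoal, a treatment that removes steroids and other lipid-soluble molecules. The extract is a mixture whose composition is not given in the labels, only 1 dose and 1 time were sampled, and all cells are of 1 line.

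Cells build cholesterol from acetyl-CoA. The mevalonate arm makes short isoprenoid diphosphates, squalene synthase commits them to sterols, and a long series of enzymes in the endoplasmic reticulum turns squalene into cholesterol. The same isoprenoids also feed dolichol, the lipid carrier of sugars for protein glycosylation, the tail of ubiquinone, which carries electrons in mitochondria, and the lipid anchors of small GTPases and lamins. When sterols in the endoplasmic reticulum run low, the escort protein SCAP leaves its retention protein INSIG and carries the precursor of SREBP-2 to the Golgi. The transcription factor cut free there is known to turn on many sterol synthesis genes, often together with the CCAAT-binding factor NF-Y.

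The libraries held 22615150 to 27615196 expected counts, so that 3 counts in a library correspond to 0.109 to 0.133 CPM, counts scaled to a common library size. Whether the 3 libraries of a group stem from separate cultures is not labelled, and p-values describe the spread between libraries. Frankincense replicate 3 stood apart from the other frankincense libraries: a chi-square comparison of counts gave 12.9 and 11.2 per degree of freedom against replicates 1 and 2, which differed from each other by 3.93, and vehicle libraries differed among themselves by 3.65 to 4.18. Genes of the mitochondrial genome took 9.50% to 11.01% of counts in frankincense libraries and 14.01% to 14.7% in vehicle libraries. Of the epithelial markers, KRT8, KRT18, KRT19 and KRT7 were above 1 TPM in every library. EPCAM averaged 1.97 TPM in frankincense libraries and 1.12 TPM in vehicle libraries. CDH1, which encodes E-cadherin, averaged 0.0200 TPM in frankincense libraries and 0.133 TPM in vehicle libraries. All 5 stromal markers were also above 1 TPM, and endothelial and hepatocyte markers were at or near 0, with 0 of 3 in each list above 1 TPM. Of 4 immune markers CD68, a lysosomal protein, was above 1 TPM in every library, with a mean of 46.2 TPM in frankincense libraries and 29.2 TPM in vehicle libraries, and of 3 smooth muscle markers ACTA2 was, with 37.3 TPM in frankincense libraries and 37.2 TPM in vehicle libraries. CD14 went the other way from CD68, with a mean of 0.413 TPM in frankincense libraries and 2.53 TPM in vehicle libraries. PTPRC averaged 0.113 TPM in frankincense libraries and 0.17 TPM in vehicle libraries, and CD3E was at 0. Summed immune markers, mostly CD68, ran from 35.1 to 63.95 TPM in frankincense libraries and from 30.2 to 33.8 TPM in vehicle libraries. The part of these markers in the results was not tested.

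Frankincense-treated 12Z cells held more RNA of most enzymes on the way to cholesterol. At an adjusted p under 0.05 in edgeR, 21 of the 31 enzymes rose, 2 fell and 8 did not pass, against 62.9% of all 16719 tested genes called in either direction, 31.9% called higher and 31% called lower. By size, 12 of the 31 rose at least 2-fold, against 5.14% of tested genes, and 3 rose at least 4-fold, against 0.801%. The 3 were HMGCS1, CYP51A1 and MSMO1. The median log2 fold change of the 31 enzymes was 0.58, beside -0.0016 over all tested genes. Since RNA was measured in bulk, more RNA per cell and a larger share of cells that express a gene cannot be told apart.

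The rises were concentrated in the main chain. Of its 21 genes, those of the mevalonate and squalene to cholesterol arms, 17 rose, 2 fell and 2 did not pass. Their median log2 fold change was 1.16. GGPS1 is counted among them and did not pass, although it leads to geranylgeranyl diphosphate rather than to cholesterol. In the side branches 4 of 10 rose, none fell and 6 did not pass, with a median of 0.10. Over all tested genes 31.9% were called higher and 31% lower. All 12 enzymes that rose at least 2-fold belong to the main chain. In 22 of the 31 enzymes every frankincense library was above every vehicle library, and in 2 every frankincense library was below, where 34.0% of tested genes were separated upwards and 33.5% downwards, 67.5% in all. The same 21 enzymes were called higher under each of the other scalings, filters and tools that were tried and with any 1 library left out, frankincense replicate 3 included.

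**Figure D1:**
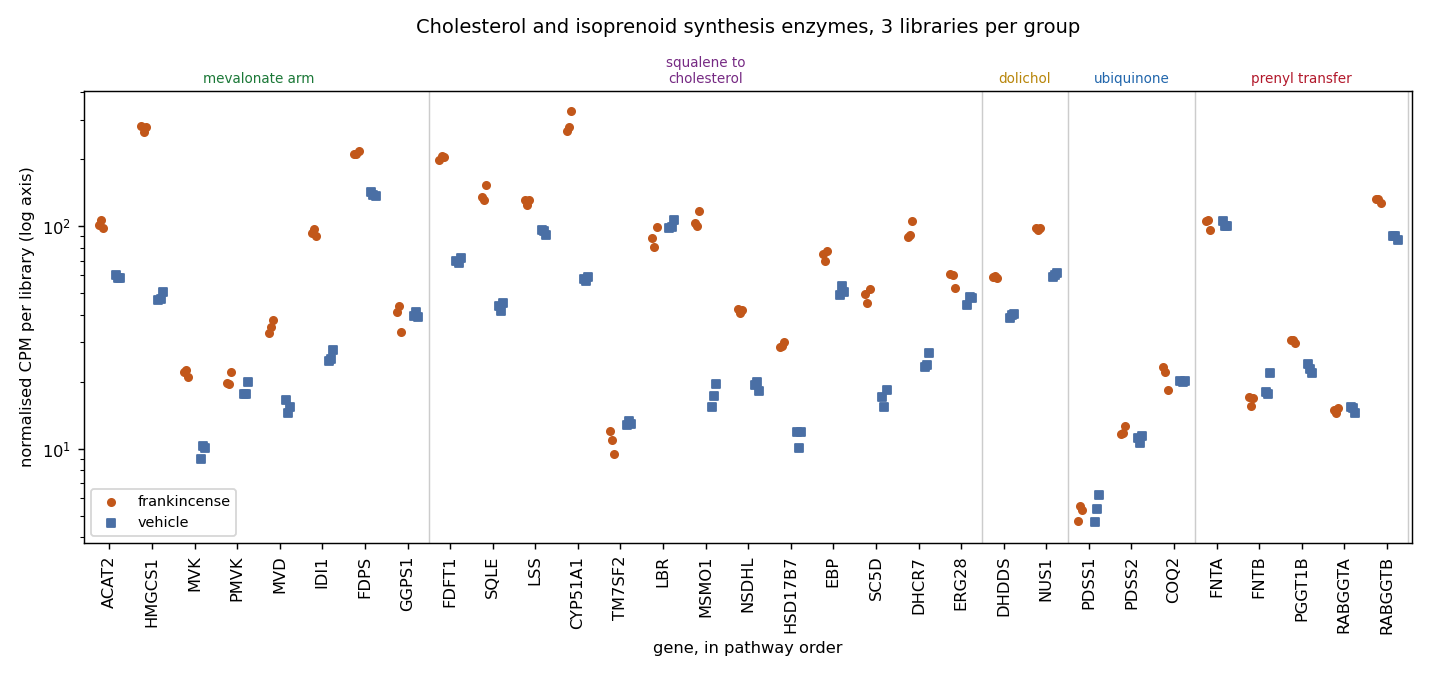
Normalised CPM (vertical log axis) of the 31 enzymes in pathway order (horizontal axis), with a circle for each frankincense library and a square for each vehicle library. HMGCS1, CYP51A1 and MSMO1 show the widest gaps, LBR and TM7SF2 sit lower in frankincense libraries or overlap, and the ubiquinone genes and several prenyl transferase subunits lie on top of each other.

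Stretches of sequence before the start of 6 of these genes are shown because the factor NF-Y, which binds CCAAT, is a known partner of SREBP at sterol genes. The 5 that rose carry the letters and LBR does not. These examples were chosen after their matches were seen and do not stand for the other enzymes. They run 5′ to 3′ on the gene's strand from 250 bases before the RefSeq start site up to the first base that GENCODE 29 annotates as exon (RefSeq, GRCh38.p14), with CCAAT or its reverse complement ATTGG in capitals.
HMGCS1 (chr5:43313513-43313662, minus strand): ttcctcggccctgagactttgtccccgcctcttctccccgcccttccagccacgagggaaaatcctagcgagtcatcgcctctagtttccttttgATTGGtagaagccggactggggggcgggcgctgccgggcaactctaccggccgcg
IDI1 (chr10:1049171-1049369, minus strand): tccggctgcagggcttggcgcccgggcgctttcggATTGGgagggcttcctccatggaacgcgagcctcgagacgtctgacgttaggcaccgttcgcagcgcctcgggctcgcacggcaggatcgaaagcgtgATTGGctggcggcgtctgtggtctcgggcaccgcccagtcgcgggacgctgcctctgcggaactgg
MSMO1 (chr4:165327419-165327622, plus strand): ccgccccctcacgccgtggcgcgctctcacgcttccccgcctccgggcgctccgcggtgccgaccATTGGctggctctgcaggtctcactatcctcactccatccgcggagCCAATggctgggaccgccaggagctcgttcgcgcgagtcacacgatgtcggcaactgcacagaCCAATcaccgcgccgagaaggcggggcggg
NSDHL (chrX:152830813-152830966, plus strand): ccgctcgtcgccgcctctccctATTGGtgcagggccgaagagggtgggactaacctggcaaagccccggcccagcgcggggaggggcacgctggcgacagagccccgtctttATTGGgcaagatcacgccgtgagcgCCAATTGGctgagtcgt
DHCR7 (chr11:71448436-71448643, minus strand): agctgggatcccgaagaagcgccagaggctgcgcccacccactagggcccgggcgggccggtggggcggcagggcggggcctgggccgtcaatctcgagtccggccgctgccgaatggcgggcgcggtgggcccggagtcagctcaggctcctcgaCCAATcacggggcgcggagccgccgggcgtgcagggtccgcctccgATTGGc
LBR (chr1:225428926-225429071, minus strand): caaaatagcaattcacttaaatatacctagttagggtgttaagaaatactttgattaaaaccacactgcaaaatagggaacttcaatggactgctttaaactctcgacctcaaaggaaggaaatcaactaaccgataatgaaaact
HMGCS1 carries a reverse CCAAT here, IDI1 carries 2 in the reverse orientation, and MSMO1 carries 3 within this stretch. In NSDHL a pair of matches on opposite strands overlaps in CCAATTGG, so its 4 matches are at 3 places. The DHCR7 stretch lies inside the span that GENCODE 29 gives the gene, which begins further upstream.

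Start windows of 300 bases, 250 before to 50 after the RefSeq start, were found for 27 of the 31 enzymes, and both strands were searched for CCAAT, with overlapping matches counted separately and the window with most matches taken where a gene has several. CCAAT was present in 19 of 27 enzymes (70.4%), against 42.4% of the 11513 tested genes with a window and 34.6% of all 35116 windows. In the main chain 15 of 18 genes (83.3%) held it and 11 of 18 (61.1%) held at least 2 matches, where 15.9% of tested genes did. In the side branches 4 of 9 (44.4%) held it and 1 of 9, COQ2, held at least 2. The letters did not follow the size of the rise gene by gene: CYP51A1, among the 3 strongest rises, had no match, and ERG28, with a log2 fold change of 0.31, had 3. Of the main chain genes that did not rise, TM7SF2 and GGPS1 had 1 match each, and PMVK and LBR had 0. GGGCGG, the GC box bound by SP1, was in 22 of 27 enzymes (81.5%) and in 75.6% of tested genes. A sterol response element spelled TCACNCCAC was in 0 of 27 enzymes, in 1.43% of tested genes and in 1.13% of all windows. At such low shares 0 of 27 does not show that these genes lack the element, and other spellings were not searched. These are matches of letters in these windows, and no binding was measured.

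**Figure D2:**
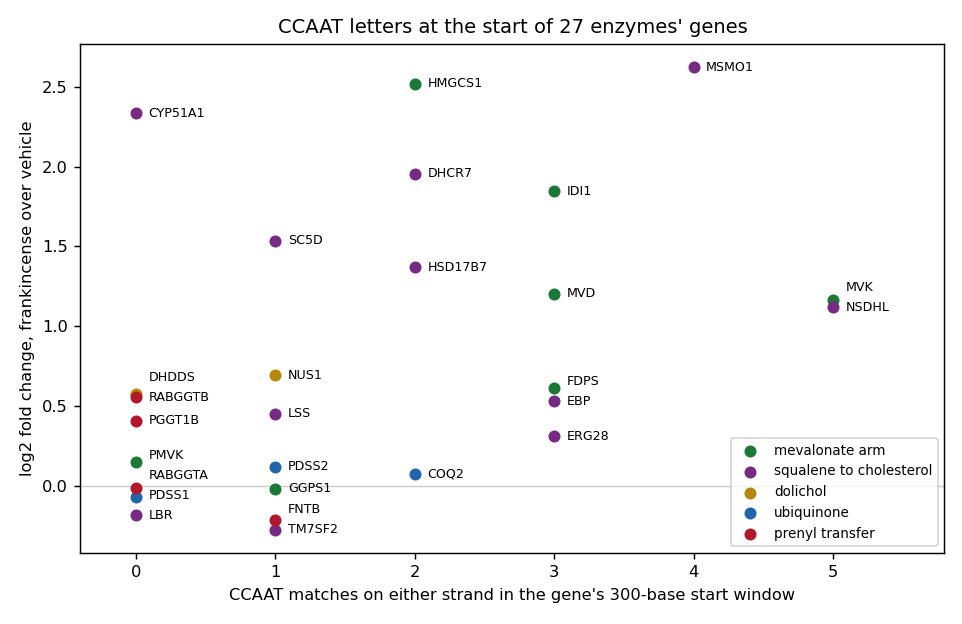
Log2 fold change of RNA, frankincense over vehicle (vertical axis), against the number of CCAAT matches on either strand in the 300-base start window (horizontal axis), a point for each of 27 enzymes, coloured by branch. Most main chain genes hold 1 to 5 matches, most side branch genes hold 0 or 1, and CYP51A1 combines a log2 fold change of 2.33 with 0 matches.

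In the mevalonate arm 6 of 8 enzymes rose, with a median log2 fold change of 0.98, and the rises were uneven along the chain. HMGCS1, the cytosolic synthase that makes HMG-CoA (chr5:43289395-43313512, minus strand, GRCh38), had 281, 266 and 280.0 normalised CPM in the frankincense libraries, against 46.8, 47.2 and 50.4 in the vehicle libraries. The groups were far apart, and the gene rose 5.72-fold, a log2 fold change of 2.52 ± 0.057 (SE, n = 3 each; edgeR adjusted p = 2.6e-13). IDI1, the isomerase that makes dimethylallyl diphosphate (chr10:1039152-1049170, minus strand), had 93.5, 96.96 and 90.2 normalised CPM in the frankincense libraries, against 24.8, 25.3 and 27.9 in the vehicle libraries. It rose 3.59-fold, a log2 fold change of 1.85 ± 0.061 (SE, n = 3 each; edgeR adjusted p = 7.2e-12), and its 3 libraries in each group lay close together.

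The enzymes between them moved less. MVD, the decarboxylase that yields isopentenyl diphosphate, had 33.1, 35.3 and 37.9 normalised CPM in the frankincense libraries, against 16.5, 14.4 and 15.3 in the vehicle libraries, a log2 fold change of 1.20 ± 0.076 (SE, n = 3 each; edgeR adjusted p = 5.5e-09). MVK, mevalonate kinase, had 22.1, 22.6 and 21.04 normalised CPM in the frankincense libraries, against 8.95, 10.3 and 10.04 in the vehicle libraries, a log2 fold change of 1.16 ± 0.081 (SE, n = 3 each; edgeR adjusted p = 1.5e-08). Both rose with no overlap between groups. PMVK, the phosphomevalonate kinase that acts between them, had 19.7, 19.4 and 22.1 normalised CPM in the frankincense libraries, against 17.5, 17.5 and 19.99 in the vehicle libraries. Its groups overlapped, and its log2 fold change of 0.15 had a 95% interval of -0.01 to 0.31 (edgeR adjusted p = 0.11), which excludes the rise of either neighbour. It passed when only library size was used for scaling (edgeR adjusted p = 0.026) and without vehicle replicate 3 (edgeR adjusted p = 0.049).

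At the ends of the arm the pattern was split. ACAT2, the cytosolic thiolase that joins acetyl-CoA units, had 102, 106 and 98.4 normalised CPM in the frankincense libraries, against 60.3, 58.6 and 58.7 in the vehicle libraries, and rose 1.72-fold, a log2 fold change of 0.79 ± 0.051 (SE, n = 3 each; edgeR adjusted p = 7.3e-09). FDPS, farnesyl diphosphate synthase, had 211, 210.2 and 217 normalised CPM in the frankincense libraries, against 142, 139 and 136 in the vehicle libraries, and rose 1.53-fold, a log2 fold change of 0.61 ± 0.052 (SE, n = 3 each; edgeR adjusted p = 1.1e-07). FDPS was the most abundant of the 31 RNAs per length in both groups, with 400.4 ± 20.02 TPM in frankincense libraries and 214 ± 7.36 TPM in vehicle libraries (SD, n = 3 each). GGPS1, which extends farnesyl to geranylgeranyl diphosphate, had 41.2, 43.6 and 33.6 normalised CPM in the frankincense libraries, against 39.4, 41.3 and 38.97 in the vehicle libraries. Its groups overlapped since frankincense replicate 3 was the lowest of the 6 libraries and replicates 1 and 2 were each above at least 2 vehicle libraries. Its log2 fold change was -0.02 with a 95% interval of -0.18 to 0.15 (edgeR adjusted p = 0.88).

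Farnesyl diphosphate is the branch point, used by FDFT1 towards squalene, by GGPS1 towards geranylgeranyl diphosphate and by the side branches. The ratio of FDFT1 to GGPS1 in TPM was 4.24 ± 0.620 in frankincense libraries and 1.38 ± 0.0666 in vehicle libraries (SD, n = 3 each). The ratio of FDFT1 to FDPS was 0.458 ± 0.0214 in frankincense libraries and 0.241 ± 0.0143 in vehicle libraries. Neither ratio overlapped between groups, so RNA of squalene synthase was higher relative to both FDPS and GGPS1 in frankincense libraries. Within the mevalonate arm, HMGCS1 took 18.99% ± 0.993 in frankincense libraries and 6.06% ± 0.367 in vehicle libraries (SD, n = 3 each), and FDPS took 45.01% ± 0.590 in frankincense libraries and 54.4% ± 1.43 in vehicle libraries (SD, n = 3 each) of summed TPM.

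From squalene to cholesterol 11 of 13 enzymes rose and 2 fell, with a median log2 fold change of 1.37, and 8 rose at least 2-fold. The first steps were all higher. FDFT1, squalene synthase (chr8:11795573-11839309, plus strand), had 199, 206 and 206 normalised CPM in the frankincense libraries, against 69.9, 68.3 and 72.01 in the vehicle libraries, a log2 fold change of 1.54 ± 0.051 (SE, n = 3 each; edgeR adjusted p = 7.0e-12). SQLE, the epoxidase that oxidises squalene (chr8:124998497-125022283, plus strand), had 135, 131 and 154 normalised CPM in the frankincense libraries, against 43.9, 41.6 and 45.1 in the vehicle libraries, a log2 fold change of 1.68 ± 0.065 (SE, n = 3 each; edgeR adjusted p = 3.8e-11). The groups were well separated for both. LSS, which folds squalene epoxide into lanosterol, the first sterol, had 131, 124 and 131 normalised CPM in the frankincense libraries, against 95.7, 95.2 and 90.99 in the vehicle libraries, and rose by less, 1.37-fold, a log2 fold change of 0.45 ± 0.049 (SE, n = 3 each; edgeR adjusted p = 1.6e-06).

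Lanosterol is then stripped of its methyl groups, and among the 31 log2 fold changes MSMO1 of this stage had the highest, ahead of HMGCS1 and then CYP51A1. CYP51A1, the cytochrome P450 that removes the first methyl group (chr7:92112151-92134803, minus strand), had 268, 279 and 328 normalised CPM in the frankincense libraries, against 57.7, 56.6 and 59.1 in the vehicle libraries. It rose 5.04-fold, a log2 fold change of 2.33 ± 0.074 (SE, n = 3 each; edgeR adjusted p = 7.8e-12), with frankincense replicate 3 the highest library. MSMO1, the methylsterol oxidase (chr4:165327623-165343160, plus strand), had 103, 100.4 and 117 normalised CPM in the frankincense libraries, against 15.4, 17.2 and 19.4 in the vehicle libraries. Its rise was 6.16-fold, a log2 fold change of 2.62 ± 0.086 (SE, n = 3 each; edgeR adjusted p = 5.1e-11), which ranked 62 among the 16719 tested genes by log2 fold change.

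The partners of MSMO1 in removing the remaining methyl groups rose by less. NSDHL, the decarboxylating dehydrogenase, had 42.4, 40.9 and 41.8 normalised CPM in the frankincense libraries, against 19.3, 19.98 and 18.2 in the vehicle libraries, a log2 fold change of 1.12 ± 0.063 (SE, n = 3 each; edgeR adjusted p = 1.6e-09). HSD17B7, the keto reductase, had 28.6, 28.8 and 30.1 normalised CPM in the frankincense libraries, against 11.9, 10.1 and 11.9 in the vehicle libraries, a log2 fold change of 1.37 ± 0.080 (SE, n = 3 each; edgeR adjusted p = 2.3e-09). ERG28, known from yeast as the scaffold that holds these enzymes together, had 60.9, 60.3 and 52.6 normalised CPM in the frankincense libraries, against 44.2, 48.1 and 47.6 in the vehicle libraries, a log2 fold change of 0.31 ± 0.066 (SE, n = 3 each; edgeR adjusted p = 8.2e-04). So the 3 catalytic enzymes of this complex rose at least 2-fold and the scaffold rose 1.24-fold, with no overlap between groups in any of the 4 genes. HSD17B7 has 2 named pseudogenes, the larger at up to 331 expected counts in a library, so the division of reads between these copies is uncertain.

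The final steps also rose. DHCR7, the reductase that makes cholesterol from its dehydro precursor (chr11:71428193-71452868, minus strand), had 89.7, 91.7 and 106 normalised CPM in the frankincense libraries, against 23.3, 23.7 and 26.98 in the vehicle libraries, a log2 fold change of 1.96 ± 0.077 (SE, n = 3 each; edgeR adjusted p = 1.0e-10). SC5D, the sterol desaturase before it, had 49.3, 45.1 and 52.4 normalised CPM in the frankincense libraries, against 16.99, 15.4 and 18.3 in the vehicle libraries, a log2 fold change of 1.53 ± 0.078 (SE, n = 3 each; edgeR adjusted p = 5.8e-10). EBP, the isomerase that moves the ring double bond, had 75.1, 69.7 and 77.3 normalised CPM in the frankincense libraries, against 49.1, 53.99 and 50.6 in the vehicle libraries, and rose 1.44-fold, a log2 fold change of 0.53 ± 0.059 (SE, n = 3 each; edgeR adjusted p = 2.0e-06). No group overlapped for these 3 genes, and the desaturase and reductase moved more than the isomerase that feeds them.

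The enzymes that went against the rest of the chain share a reaction. TM7SF2 and LBR are both sterol reductases that act on the product of CYP51A1, and LBR is better known as the lamin B receptor, an anchor of heterochromatin at the inner nuclear membrane. TM7SF2 had 11.98, 10.95 and 9.43 normalised CPM in the frankincense libraries, against 12.8, 13.3 and 12.9 in the vehicle libraries, a log2 fold change of -0.27 ± 0.095 (SE, n = 3 each; edgeR adjusted p = 0.022). LBR had 88.9, 80.2 and 99.1 normalised CPM in the frankincense libraries, against 97.99, 99.5 and 107 in the vehicle libraries, a log2 fold change of -0.18 ± 0.070 (SE, n = 3 each; edgeR adjusted p = 0.036). Frankincense libraries were below all vehicle libraries for TM7SF2, whereas for LBR frankincense replicate 3 lay within the vehicle range. Both falls are small: the call on TM7SF2 was lost under library size scaling (edgeR adjusted p = 0.077), DESeq2 (adjusted p = 0.096) and without frankincense replicates 2 or 3 or vehicle replicates 2 or 3 (edgeR adjusted p = 0.053 to 0.091). The call on LBR was lost under library size scaling (edgeR adjusted p = 0.23), DESeq2 (adjusted p = 0.058) and without any library but frankincense replicate 3 (edgeR adjusted p = 0.053 to 0.19), and the log2 difference on the TPM scale was 0.00034.

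In TPM, LBR had 43.6, 47.4 and 56.8 TPM in the frankincense libraries, against 49.8, 46.9 and 50.3 in the vehicle libraries. TM7SF2 had 16.8, 10.4 and 11.5 TPM in the frankincense libraries, against 15.96, 14.1 and 15.1 in the vehicle libraries. Both overlapped between groups on this scale. The ratio of LBR to TM7SF2 was 4.02 ± 1.26 in frankincense libraries and 3.26 ± 0.122 in vehicle libraries (SD, n = 3 each), also overlapping.

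**Figure D3:**
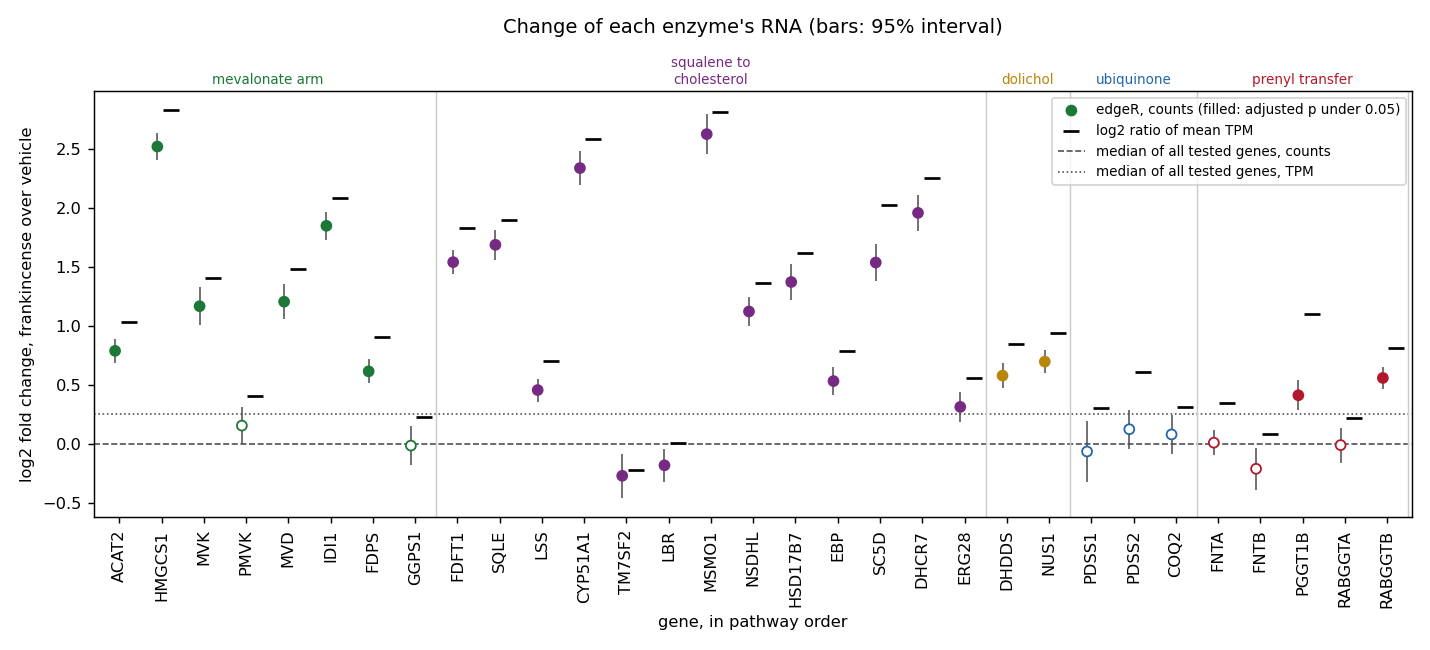
Log2 fold change of RNA, frankincense over vehicle (vertical axis), for the 31 enzymes in pathway order (horizontal axis), with bars for the 95% interval, filled points for an edgeR adjusted p under 0.05, and dashes for the log2 ratio of mean TPM. Points rise to 2.62 at MSMO1, fall below 0 at TM7SF2 and LBR, and stay near the dashed median of all tested genes in the ubiquinone branch.

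In the dolichol branch both genes rose. They encode the 2 subunits of the enzyme that strings isoprene units into the dolichol backbone. DHDDS, the catalytic subunit, had 58.8, 59.7 and 58.2 normalised CPM in the frankincense libraries, against 38.6, 39.7 and 40.1 in the vehicle libraries, a log2 fold change of 0.58 ± 0.053 (SE, n = 3 each; edgeR adjusted p = 2.9e-07). NUS1, the partner subunit also called the Nogo-B receptor, had 98.5, 95.9 and 98.3 normalised CPM in the frankincense libraries, against 58.8, 60.2 and 61.7 in the vehicle libraries, a log2 fold change of 0.70 ± 0.049 (SE, n = 3 each; edgeR adjusted p = 1.8e-08). The groups did not overlap for either, and the ratio of NUS1 to DHDDS in TPM was 0.635 ± 0.0493 in frankincense libraries and 0.592 ± 0.00935 in vehicle libraries (SD, n = 3 each), with overlap.

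In the ubiquinone branch none of 3 genes passed, where 62.9% of all tested genes were called in either direction. PDSS1, a subunit of the synthase that makes the long side chain, had 4.74, 5.50 and 5.29 normalised CPM in the frankincense libraries, against 4.65, 5.38 and 6.17 in the vehicle libraries, the lowest CPM of the 31 enzymes. PDSS2, the other subunit, had 11.6, 11.8 and 12.7 normalised CPM in the frankincense libraries, against 11.1, 10.6 and 11.4 in the vehicle libraries. COQ2, which attaches the chain to the ring, had 23.3, 22.03 and 18.4 normalised CPM in the frankincense libraries, against 20.2, 20.01 and 20.2 in the vehicle libraries. Groups overlapped for PDSS1 and COQ2 and were just apart for PDSS2. The log2 fold changes had 95% intervals of -0.33 to 0.20 for PDSS1, -0.04 to 0.29 for PDSS2 and -0.09 to 0.24 for COQ2 (edgeR adjusted p = 0.69, 0.22 and 0.44), so a 2-fold rise lies outside each of them. COQ2 was called higher without frankincense replicate 3, at a log2 fold change of 0.18 (edgeR adjusted p = 0.025).

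In protein prenylation 2 of 5 subunits rose, where 31.9% of all tested genes were called higher. FNTA is the alpha subunit shared by farnesyltransferase and by geranylgeranyl transferase type I, FNTB is the beta subunit that specifies farnesyl and PGGT1B the one that specifies geranylgeranyl. FNTA had 105, 107 and 96.3 normalised CPM in the frankincense libraries, against 106, 100.3 and 101 in the vehicle libraries, a log2 fold change of 0.01 ± 0.054 (SE, n = 3 each; edgeR adjusted p = 0.9). FNTB had 17.1, 15.5 and 16.9 normalised CPM in the frankincense libraries, against 17.98, 17.6 and 21.8 in the vehicle libraries, a log2 fold change of -0.21 ± 0.090 (SE, n = 3 each; edgeR adjusted p = 0.052). PGGT1B had 30.6, 30.8 and 29.7 normalised CPM in the frankincense libraries, against 23.9, 22.9 and 21.9 in the vehicle libraries, a log2 fold change of 0.41 ± 0.064 (SE, n = 3 each; edgeR adjusted p = 5.9e-05). Of these 3 genes PGGT1B passed, with every frankincense library above every vehicle library. FNTB was below all vehicle libraries in each frankincense library but missed the threshold, and passed as lower under 5 alternatives that use all 6 libraries, the replicate block among them.

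The subunits of the Rab geranylgeranyl transferase, which anchors Rab GTPases of vesicle traffic, also moved unequally. RABGGTB, the beta subunit, had 133, 132 and 127 normalised CPM in the frankincense libraries, against 89.9, 90.1 and 86.3 in the vehicle libraries, a log2 fold change of 0.56 ± 0.049 (SE, n = 3 each; edgeR adjusted p = 1.6e-07). RABGGTA, the alpha subunit, had 14.9, 14.5 and 15.3 normalised CPM in the frankincense libraries, against 15.5, 15.2 and 14.4 in the vehicle libraries, a log2 fold change of -0.01 ± 0.076 (SE, n = 3 each; edgeR adjusted p = 0.9). The ratio of RABGGTB to RABGGTA in TPM was 7.07 ± 0.258 in frankincense libraries and 4.68 ± 0.453 in vehicle libraries (SD, n = 3 each), and the ratio of PGGT1B to FNTB was 1.33 ± 0.213 in frankincense libraries and 0.656 ± 0.0767 in vehicle libraries. Neither ratio overlapped between groups. PGGT1B alone was 2.14 times as high in TPM and 1.33 times as high in counts, so the size of its ratio to FNTB depends on the scale. The ratio of FNTB to FNTA was 0.129 ± 0.0222 in frankincense libraries and 0.153 ± 0.0109 in vehicle libraries, with overlap.

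Summed over genes, RNA of each arm was higher after frankincense and the sterol arm moved furthest, by a narrow margin in normalised CPM. The mevalonate arm summed to 862, 862 and 944 TPM in frankincense libraries, against 404, 383 and 395 TPM in vehicle libraries, a ratio of 2.26. The squalene to cholesterol arm summed to 875, 879 and 1034 TPM in frankincense libraries, against 348, 339 and 355 TPM in vehicle libraries, a ratio of 2.68. The side branches summed to 385, 389 and 406 TPM in frankincense libraries, against 259.6, 251 and 268 TPM in vehicle libraries, a ratio of 1.52. Groups did not overlap in any sum, and frankincense replicate 3 was the highest of its group in each TPM sum. Mitochondrial genes take up less of the total in frankincense libraries, which moves every TPM: rescaled without them the ratios were 1.99, 2.35 and 1.33, and in normalised CPM they were 2.25, 2.32 and 1.28, for mevalonate, sterol and side branches in that order. In normalised CPM frankincense replicate 3 was the highest of its group in the squalene to cholesterol sum alone, at 1404 beside 1283 and 1268. The difference between arms was not tested.

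**Figure D4:**
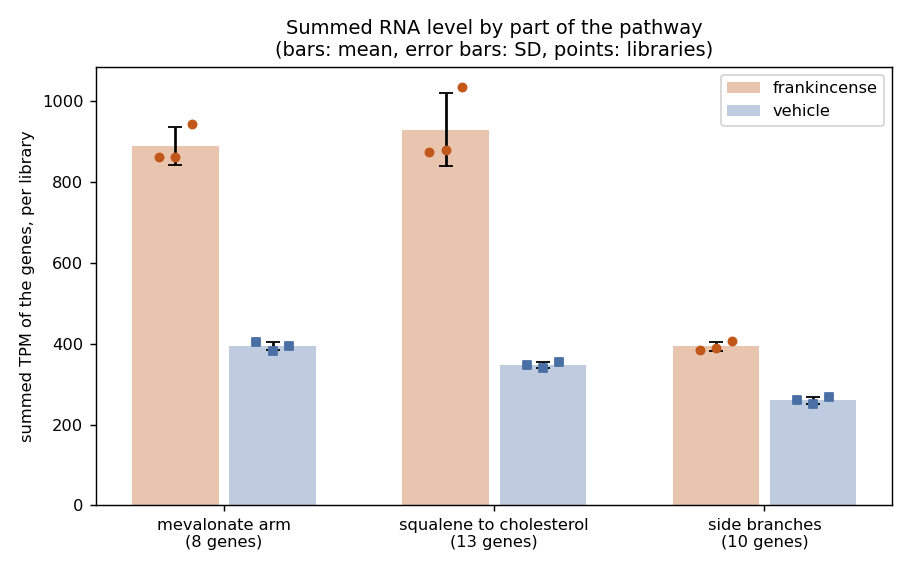
Summed TPM (vertical axis) of the 8 mevalonate, 13 squalene to cholesterol and 10 side branch genes (horizontal axis), with bars for the group mean, error bars for the SD over 3 libraries and points for the libraries. The frankincense bars stand 2.26, 2.68 and 1.52 times as high as the vehicle bars.

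The order of RNA levels among the enzymes changed with treatment. In vehicle libraries FDPS, RABGGTB, FNTA and EBP led the 31 in mean TPM, and HMGCS1, CYP51A1 and MSMO1 ranked 14, 15 and 25. In frankincense libraries FDPS led, followed by FDFT1, HMGCS1 and CYP51A1, and MSMO1 ranked 10. RABGGTB averaged 135 ± 6.46 TPM in frankincense libraries and 76.6 ± 3.05 TPM in vehicle libraries, and FNTA averaged 96.99 ± 4.75 TPM in frankincense libraries and 76.5 ± 3.91 TPM in vehicle libraries (SD, n = 3 each), so these neighbours in the vehicle order differed by less than their spread. At the other end PDSS2 averaged 7.70 ± 0.730 TPM in frankincense libraries and 5.06 ± 0.510 TPM in vehicle libraries, and PDSS1 averaged 7.25 ± 0.947 TPM in frankincense libraries and 5.87 ± 1.57 TPM in vehicle libraries, which also lie within their spread of each other. Across the 31 enzymes the vehicle TPM and the log2 fold change had a Spearman correlation of -0.08, a description over genes that share libraries.

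For a few enzymes the mean transcript length that RSEM assigned also differed, and count and TPM then gave different sizes. PGGT1B transcripts averaged 3198, 2749 and 2493 bases in frankincense libraries, against 3658, 4174 and 3411 bases in vehicle libraries, a fall of 24.9%. Its TPM was 2.14 times as high in frankincense libraries, whereas its counts were 1.33 times as high. SC5D averaged 2911, 2775 and 2680.4 bases in frankincense libraries and 3175, 3122 and 3454 bases in vehicle libraries, 14.2% shorter. PDSS2 averaged 2298, 2433 and 2396 bases in frankincense libraries and 2894, 2823 and 2609 bases in vehicle libraries, 14.4% shorter. These 3 genes, FDFT1 by 2.82% and ACAT2 by 0.21% were shorter in every frankincense library than in any vehicle library, 5 of 31 against 10.2% of tested genes, and 0 of 31 were longer against 6.69%. The lengths are estimates from the mix of isoforms, and which isoforms changed was not analysed here.

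On the TPM scale, limma on log2(TPM + 1) called 26 of the 31 enzymes higher and 0 lower, against 43.8% and 14.8% of tested genes. The median of all tested genes stood at 0.20 on that scale, so calls near it follow the scale. The 5 added were PMVK, GGPS1, PDSS2, COQ2 and FNTA. PDSS2 had 7.41, 7.16 and 8.53 TPM in the frankincense libraries, against 4.88, 4.67 and 5.64 in the vehicle libraries, a log2 difference of 0.52 (limma adjusted p = 0.0033) that remained at 0.37 when mitochondrial genes were left out of the scaling (limma adjusted p = 0.021).

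**Figure D5:**
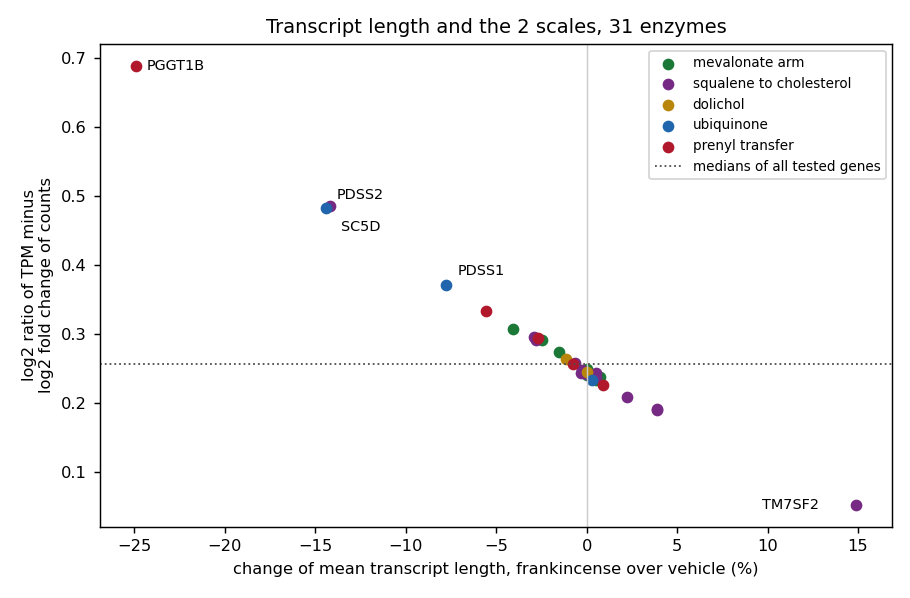
Difference between the log2 ratio of TPM and the log2 fold change of counts (vertical axis) against the change of mean transcript length in percent, frankincense over vehicle (horizontal axis), a point for each of 31 enzymes. PGGT1B, SC5D, PDSS2 and PDSS1 lie to the upper left, with shorter transcripts and a larger change in TPM than in counts, and TM7SF2 lies to the lower right at 14.9% longer, with groups that overlap.

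Several enzymes overlap or start next to other genes, and no source says that the kit kept strand, so reads of opposite genes may be mixed. MVK shares 620 bases with MMAB, which encodes an enzyme of cobalamin metabolism and runs the opposite way. MMAB had 24.6, 23.7 and 22.2 normalised CPM in the frankincense libraries, against 9.98, 9.75 and 10.9 in the vehicle libraries, a log2 fold change of 1.20 ± 0.08 (SE, n = 3 each; edgeR adjusted p = 9.8e-09). The pair moved alike. IDI1 overlaps the antisense gene IDI2-AS1 over 5050 bases, which had 1.29 on the log2 scale, while WDR37, which starts within 1000 bases of IDI1 in the other direction, fell by 0.22 (edgeR adjusted p = 0.011). FDPS overlaps RUSC1-AS1 over 3804 bases, whose log2 fold change of 0.60 was close to that of FDPS at 0.61. HMGCS1 overlaps the antisense gene AC114947.2, at 1.96, 1.37 and 2.50 normalised CPM in the frankincense libraries, against 0.497, 0.149 and 0.976 in the vehicle libraries, far below HMGCS1. Other genes on the opposite strand with low counts also rose: SOD2-OT1 over ACAT2 by 1.52 (edgeR adjusted p = 0.0025), AP002387.1 over DHCR7 by 0.73 (edgeR adjusted p = 0.0015) and SNAI3-AS1 beside MVD by 0.72 on the log2 scale (edgeR adjusted p = 0.0015).

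For other neighbours, apart from ARID4B, the change was smaller than that of the enzyme, did not pass or went the other way. CETN2, which encodes a centrin and starts back to back with NSDHL, had a log2 fold change of -0.15 (edgeR adjusted p = 0.17), against 1.12 for NSDHL. TCP1, a chaperonin subunit that overlaps ACAT2, had 0.03 (edgeR adjusted p = 0.65), against 0.79 for ACAT2. ACADM, a fatty acid oxidation enzyme that overlaps RABGGTB on the same strand, had -0.05 (edgeR adjusted p = 0.41), against 0.56. TTLL5, which spans ERG28 on the other strand, fell by 0.62, while ERG28 rose by 0.31. NADSYN1, which starts near DHCR7, rose by 0.38, against 1.96. GGPS1 overlaps TBCE, which encodes a tubulin cofactor, on the same strand over 15963 bases, and neither gene passed, with -0.16 for TBCE (edgeR adjusted p = 0.6). ARID4B, which overlaps GGPS1 on the other strand over 870 bases, fell by 0.19 (edgeR adjusted p = 0.0097), against -0.02 for GGPS1. FNTB shares 75084 bases with the readthrough gene CHURC1-FNTB, which had 2.39, 2.999 and 0.0410 normalised CPM in the frankincense libraries, against 2.30, 1.90 and 2.58 in the vehicle libraries. RSEM divides reads shared by both genes, and frankincense replicate 3 stands out in the result. MAX overlaps FNTB on the other strand over 56479 bases. It had 83.4, 80.9 and 74.9 normalised CPM in the frankincense libraries, against 64.0, 60.3 and 58.4 in the vehicle libraries. MAX rose by 0.39 on the log2 scale (edgeR adjusted p = 3.9e-05), against -0.21 for FNTB.

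Genes around the pathway were read from lists of neighbours. Of 12 genes of sterol sensing and traffic, 8 rose and 3 fell, with a median log2 fold change of 0.57, where 31.9% of all tested genes were called higher and 31% lower. INSIG1, which retains SCAP in the endoplasmic reticulum and is itself a known SREBP target, had 171, 164.1 and 169 normalised CPM in the frankincense libraries, against 41.02, 40.1 and 43.3 in the vehicle libraries. It rose the most of the list, a log2 fold change of 2.02 ± 0.052 (SE, n = 3 each; edgeR adjusted p = 9.1e-13). The other regulators moved less. SREBF2, which encodes SREBP-2, had 139, 138 and 146 normalised CPM in the frankincense libraries, against 93.3, 95.6 and 96.4 in the vehicle libraries, a log2 fold change of 0.57 ± 0.049 (SE, n = 3 each; edgeR adjusted p = 1.4e-07). SCAP, the escort of SREBP, had 56.5, 57.9 and 67.4 normalised CPM in the frankincense libraries, against 45.9, 44.5 and 43.4 in the vehicle libraries, a log2 fold change of 0.44 ± 0.068 (SE, n = 3 each; edgeR adjusted p = 5.3e-05). Both were higher in every frankincense library. SREBF1, which encodes the SREBP-1 proteins of fatty acid synthesis, had 83.7, 78.3 and 89.3 normalised CPM in the frankincense libraries, against 126, 131 and 119.7 in the vehicle libraries and showed the largest fall, a log2 fold change of -0.58 ± 0.058 (SE, n = 3 each; edgeR adjusted p = 6.5e-07). The groups did not overlap in these 4 genes. MBTPS1, a protease that cuts both SREBPs, fell by 0.16 on the log2 scale (edgeR adjusted p = 0.013). MBTPS2, the other SREBP protease of the list, rose by 0.58 on the log2 scale (edgeR adjusted p = 0.0015). INSIG2, a relative of INSIG1, had a log2 fold change of 0.10 (edgeR adjusted p = 0.19).

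SLC25A1, the mitochondrial citrate carrier that supplies acetyl units, fell by 0.41 on the log2 scale (edgeR adjusted p = 9.5e-05). Of 9 genes that make or use dolichol, 7 rose and 1 fell, with a median log2 fold change of 0.30, beside the same 31.9% higher and 31% lower over all tested genes. ALG5, which makes glucosyl-phosphodolichol, had 34.1, 33.7 and 37.3 normalised CPM in the frankincense libraries, against 16.9, 17.4 and 19.8 in the vehicle libraries, a log2 fold change of 0.96 ± 0.075 (SE, n = 3 each; edgeR adjusted p = 5.3e-08). DPM3, an anchor subunit of the mannosyl synthase, had 9.67, 8.79 and 7.71 normalised CPM in the frankincense libraries, against 14.1, 14.5 and 11.5 in the vehicle libraries, a log2 fold change of -0.61 ± 0.11 (SE, n = 3 each; edgeR adjusted p = 2.3e-04).

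Of 10 further ubiquinone genes 2 rose and 2 fell, with a median log2 fold change of 0.0042, where 62.9% of all tested genes were called in either direction. COQ10B, a ubiquinone-binding protein, rose by 0.68 (edgeR adjusted p = 3.0e-06), and COQ8A, the atypical kinase of the pathway, fell by 0.86 on the log2 scale (edgeR adjusted p = 2.9e-07). Of 5 genes that act on prenylated proteins or on Rab proteins before prenylation, 4 rose and 1 fell, with a median log2 fold change of 0.35, against 31.9% of tested genes called higher and 31% called lower. ZMPSTE24, the protease that matures prelamin A, had 86.4, 81.3 and 92.4 normalised CPM in the frankincense libraries, against 54.2, 52.7 and 51.9 in the vehicle libraries, a log2 fold change of 0.71 ± 0.058 (SE, n = 3 each; edgeR adjusted p = 7.1e-08). ICMT, which methylates the prenylated end, had 147, 155 and 168 normalised CPM in the frankincense libraries, against 189, 181 and 201 in the vehicle libraries, a log2 fold change of -0.28 ± 0.062 (SE, n = 3 each; edgeR adjusted p = 0.0012). The groups did not overlap for either.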

How the data were processed

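RNA of 6 libraries of 12Z cells was measured, 3 per group. The authors aligned to GRCh38 with STAR and RSEM 1.3.1 among the tools, per the submitters' processing notes, and the annotation is not stated there. Each deposited expected count is an RSEM estimate per gene that divides multiply matching reads, per the file headers. The deposited TPM is an abundance per transcript length with a common total for all libraries, and the deposited FPKM, scaled to length and depth, was left aside. The deposited length is a mean over isoforms weighted by abundance, per the file headers.

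The expected counts, rounded, entered edgeR 4.0.16 (R 4.3.3) for all 16719 genes kept by filterByExpr, with TMM factors, robust quasi-likelihood fits and a two-sided test of frankincense over vehicle. Benjamini-Hochberg adjustment ran over all of these genes, and an adjusted p under 0.05 was called. Normalised CPM uses TMM library sizes, and no mean or sum of TPM carries a p-value. The SE is the absolute log2 fold change divided by the square root of F, and intervals are normal 95% intervals. The biological coefficient of variation was 6.42%. The fit was tested on simulated data with known answers.

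Alternatives were other scalings, filters, DESeq2 1.42.0, limma-voom and limma with trend on log2(TPM + 1) from limma 3.58.1, a replicate block and leaving out each library. Limma on TPM rescaled without mitochondrial genes was added after seeing the data. Positions and overlaps came from GENCODE 29, and start windows from RefSeq (GRCh38.p14). Named genes are all 31 enzymes, SREBF2, SCAP and INSIG1, the largest called rise and fall of each neighbour list, and genes overlapping or starting beside an enzyme. MBTPS1, MBTPS2 and INSIG2 were named in addition. Some results of the neighbour lists are not reported here. The members and lists were chosen with earlier results of these data known. Expected counts were whole in every library for 16 of the 31 enzymes, within a tolerance of 0.005.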

Additional observations from a re-analysis of the deposited data

How the results depend on the processing

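Enzymes called higher numbered 21 in edgeR with TMM and 21 to 26 under every alternative, and leaving out 1 library gave 21 to 22. Enzymes called lower numbered 2, but 0 with library size scaling, with DESeq2 and with limma on TPM, as deposited or rescaled without mitochondrial genes, and 0 to 2 when 1 library was left out. FNTB was called lower as well under median-of-ratios and upper-quartile scaling (edgeR adjusted p = 0.049 and 0.021). The same held with no filter, with at least 5 CPM in 3 libraries and with the replicate block (edgeR adjusted p = 0.049, 0.027 and 0.033). Called genes overall numbered 10509, and 9377 to 11031 when 1 library was left out. On the log2 scale the summed TPM differed by 1.18 in the mevalonate arm, 1.42 in the squalene to cholesterol arm and 0.60 in the side branches. Rescaled without mitochondrial genes these were 0.99, 1.23 and 0.42, and in normalised CPM 1.22 for the squalene to cholesterol arm and 0.35 for the side branches, while leaving out 1 library gave 1.13 to 1.20, 1.34 to 1.46 and 0.58 to 0.62.

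Reversals touched only enzymes with log2 fold changes near 0, other than LBR and FNTB. GGPS1 became 0.059 under library size scaling, 0.21 on TPM, 0.034 on rescaled TPM, 0.098 without frankincense replicate 3 and 0.0072 without vehicle replicate 2, with -0.085 the lowest value when a library was left out. PDSS1 became 0.011 under library size scaling, 0.28 on TPM, 0.13 on rescaled TPM and 0.040 without vehicle replicate 3, with -0.16 the lowest. FNTA became -0.036 under upper-quartile scaling, -0.020 with at least 5 CPM in 3 libraries, and -0.012 to 0.064 when a library was left out. RABGGTA became 0.064 under library size scaling, 0.0027 with no filter, 0.20 on TPM, 0.028 on rescaled TPM, 0.015 without frankincense replicate 2 and 0.0079 without vehicle replicate 1, with -0.042 the lowest. On TPM, LBR became 0.00034 and FNTB 0.074. The cause was not tested.

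Libraries of the 2 groups share replicate numbers, but deviations of same-numbered libraries correlated by 0.050, 0.101 and 0.035, too little to treat them as pairs, although each library correlated best with its own number. With the number as a replicate block, 10591 genes, 21 enzymes higher and 3 lower were called, and the added enzyme was FNTB (edgeR adjusted p = 0.033). With 3 libraries per group, small changes can be missed.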

Other observations

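Frankincense replicate 3 also differed from replicates 1 and 2 within the pathway. Its log2 CPM minus their mean was -0.34 for GGPS1, -0.30 for COQ2 and -0.28 for TM7SF2, and 0.26 for CYP51A1, 0.23 for LBR and 0.22 for DHCR7. Over all 16719 tested genes this deviation had a Spearman correlation of 0.32 with the mean transcript length, and over the 31 enzymes of 0.20, both as descriptions over genes of the same libraries. The part of transcript length in the calls was not tested.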
